A study of Homo sapiens with 6 samples.

Results

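The genes described here encode the proteasome, its assembly chaperones, its activators and inhibitor, and the transcription factor *NFE2L1*. They were taken from a list of 49 symbols and found in the deposited counts by their NCBI Gene numbers. Of these, 48 had a row among the 29806 gene numbers listed and all 48 had enough reads to be tested, whereas *PSME3* was not analysed here. The samples were 3 dishes of LNCaP parental cells, the wild type of a human prostate cancer cell line, and 3 dishes of LNCaP PACT KO cells. PACT is the protein encoded by *PRKRA*, and the knockout was made by transfecting LNCaP cells with a plasmid carrying Cas9 and a guide RNA to that gene, sorting GFP-positive cells and expanding a single clone. The parental cells were not described as having passed through these steps. Both lines were grown in RPMI-1640 with 10% FBS and plated at 1000000 cells per 10 cm dish. They were collected 48 h later, at about 80% confluency. Because the 3 PACT KO dishes came from 1 clone, every test below measures the spread between dishes, which may be technical, and an effect of PACT cannot be told apart from a property of the clone.

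The proteasome degrades proteins that carry ubiquitin chains. Its 20S core is a barrel of alpha and beta rings, with the proteolytic sites inside on the beta subunits PSMB5, PSMB6 and PSMB7. The 19S cap receives substrates, removes the ubiquitin and, through a ring of ATPases, unfolds the protein and feeds it into the core. Dedicated chaperones build both parts, and each of the 19S chaperones binds its own set of ATPases. PSMD5 holds the module with PSMC1, PSMC2 and PSMD2, PSMD9 the module with PSMC3 and PSMC6, and PSMD10 and PAAF1 the module with PSMC4 and PSMC5. When proteasome activity is impaired, cells can raise the transcription of many subunit genes together through NFE2L1, a factor that is otherwise degraded by the proteasome. The comparison therefore asked whether the other proteasome genes were higher in a clone with almost no *PSMD5* mRNA.

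Libraries held 19930060 to 24940838 reads on genes. *PRKRA*, the targeted gene, drew 882, 809 and 866 parental reads and 291, 331 and 243 PACT KO reads, so its mRNA was lower but present. *RNR2*, the large ribosomal RNA of mitochondria, took 1.76% to 1.79% of the parental and 2.23% or more of the reads in each PACT KO library. All 7 luminal markers of LNCaP were tested, of which 2 were lower and 2 higher (edgeR FDR under 0.01, against 18.8% and 15.3% of all genes tested), with a summed level of 4474 to 4504 CPM (counts per 1000000 reads after scaling) in the parental and 4606 to 4701 CPM in the PACT KO libraries. Of 12 basal, stromal and immune markers, 6 had at most 3 reads in every library, with *KRT5*, *COL1A2* and *CD3E* at 0 in all 6 libraries. Their summed level was 30.1 to 32.8 CPM in parental and 40.4 to 45.6 CPM in PACT KO cells. Nearly all of it was *COL1A1*, with 623, 650 and 732 reads against 1065, 936 and 878 (edgeR FDR = 1.98e-10), and the part of *COL1A1* and of *RNR2* in the results below was not tested.

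*PSMD5*, which encodes the chaperone S5b, was the 1 listed gene that was lost. It lies on chromosome 9 at 120816053 to 120842922 of GRCh38.p14 (RefSeq), on the minus strand, and the gene beside it, *CUTALP*, starts 152 bases away on the opposite strand, so the pair is arranged head to head. *CUTALP* is a transcribed pseudogene at 120843075 to 120854373. The bases between the starts, chr9:120842923-120843074, are printed on the *PSMD5* strand because both genes of the pair lost their reads. The capitals mark matches to TGACNNNGC, the short form of the antioxidant response element that NFE2L1 and related factors bind, and to TCTCGCGAG, part of a palindromic element found in many promoters. The matches do not overlap.

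*PSMD5* promoter: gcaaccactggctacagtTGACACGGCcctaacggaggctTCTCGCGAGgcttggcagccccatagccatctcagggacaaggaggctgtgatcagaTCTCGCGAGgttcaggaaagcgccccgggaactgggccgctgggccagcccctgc

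The stretch holds 9 CpG dinucleotides and is 64.5% G and C. The match to TGACNNNGC begins 134 bases before the *PSMD5* start, and TCTCGCGAG occurs at 112 and 55 bases before it.

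*PSMD5* had 106, 103 and 136 reads in the parental libraries and 0, 0 and 2 in the PACT KO libraries. *CUTALP* had 28, 32 and 44 reads in the parental libraries and 0 in each PACT KO library. Neither gene had overlapping groups. Against 3 reads per library, *CUTALP* was at least 11.4-fold lower (edgeR FDR = 4.73e-11), while *PSMD5*, chosen for its loss, was at least 38.0-fold lower and is given without a test. In RNA from a whole dish, fewer cells with the transcript and less of it per cell cannot be told apart. The next genes on either side kept their reads. *FBXW2*, which encodes an F-box protein, had 113 ± 4.09 CPM in parental and 110 ± 2.19 CPM in PACT KO cells (SD, n = 3), with overlapping groups and a log2 fold change (log2FC) of -0.04 (standard error, SE, of 0.03, edgeR FDR = 0.300). *B3GALT9* had 4.80, 3.93 and 4.80 CPM against 5.10, 4.98 and 5.34 CPM, so every PACT KO library lay above the parental ones, at a log2FC of 0.18 that did not pass (SE 0.12, edgeR FDR = 0.221). *AHCYP2*, the next gene on that side, was not analysed here. On the far side of *CUTALP*, *PHF19*, a Polycomb-associated gene, had 224, 204 and 202 reads against 195, 213 and 181, a log2FC of -0.10 (SE 0.10, edgeR FDR = 0.429). *TRAF1* had 1 read in all 6 libraries together. In the GENCODE 29 annotation *PSMD5* starts at 120842984, inside the printed stretch, *CUTALP* begins at 120824828, inside *PSMD5*, and whether the counting used strand is not given in the sources used here. Reads from the overlapping stretch could then be assigned to either gene or to neither.

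*PSMD5* had few counted reads in the parental cells too. In the annotation where *CUTALP* overlaps *PSMD5*, reads from the shared stretch may have gone to *CUTALP* or to neither gene. The level of *PSMD5* may therefore be too low, and the size of any such loss was not tested. Per kilobase of its principal transcript, *PSMD5* as counted stood at 1.44 CPM. The 34 genes of the 20S and 19S particles had a median of 98.0 CPM per kilobase, 67.9 times as much. Among these 34 the levels per kilobase ran from 5.14 for *UCHL5* to 362 for *PSMB4*, a 70.4-fold range. Median levels per kilobase were 110 CPM for the alpha ring and 198 CPM for the beta ring. They were 75.7 CPM for the ATPases and 76.0 CPM for the other 19S subunits. The assembly chaperones, the class of *PSMD5*, had lower medians, of 26.3 CPM for the 5 of the 20S core. For the 3 other 19S chaperones the median was 23.8 CPM, from 8.66 for *PAAF1* to 53.3 for *PSMD10*.

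None of the other proteasome genes rose. Of the 47 tested besides *PSMD5*, 28 (59.6%) were lower in PACT KO cells by edgeR's quasi-likelihood test (FDR under 0.01), against 18.8% of the 14462 genes tested. None was higher at that threshold, against 15.3% of all genes, and none was higher at an unadjusted p under 0.05 either, where 24.8% of all genes were. At an FDR under 0.05, 36 were lower, against 23.9% of all genes. DESeq2, limma-voom and edgeR's likelihood ratio test also called 0 higher, overall and in each subcomplex. The falls were small, and 0 of the 47 were DEGs (an FDR under 0.01 and at least 1.5-fold), against 2.65% of all genes lower and 3.07% higher. Among all genes of at least 10 CPM, a level that 46 of the 47 reached, 1.4% were DEGs lower and 1.15% higher. A count of 0 was therefore near the background. DESeq2, limma-voom and glmTreat likewise gave 0 DEGs among them. With DESeq2 the number of lower genes was 23, and with libraries scaled by their totals alone it was 21.

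The median log2FC of the 47 genes was -0.13, a difference of -8.33%, and the quartiles were -0.18 and -0.08. Over all genes tested the median was 0.00, and over the 2420 genes of at least 100 CPM it was -0.05. Highly expressed genes were called lower more often, so the count was also set beside genes of like level. At 100 CPM or more, 22 of 31 proteasome genes (71.0%) were lower, against 37.7% of all such genes. The log2FC was below 0 in 43 of the 47 genes, against 49.9% of all genes. In 35 of the 47 every PACT KO library lay below every parental library, against 27.2% of all genes, and in *PSMC6* and *NFE2L1* every one lay above, against 25.1%. These contrasts were smaller beside genes of at least 100 CPM. There the log2FC was below 0 in 30 of 31 proteasome genes, against 62.9% of all such genes. Every PACT KO library lay below every parental one in 27 of the 31, against 46.2%. At an FDR under 0.05, 27 of the 31 were lower, against 43.8%. The fold change of each gene was bounded closely, since the highest upper limit of a 95% interval was a gain of 9.15% (*PSMC6*) and the lowest lower limit was -27.2% (*PSMG4*). A change of 1.5-fold in either direction lay outside the interval of every one of the 47.

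Most genes of both rings of the 20S core were lower. In the alpha ring, which forms the outer gate, 5 of 7 genes fell (FDR under 0.01), against 18.8% of all genes tested. The share was 37.7% among all genes of at least 100 CPM. The summed level went from 1271 ± 20.4 to 1171 ± 7.82 CPM (SD, n = 3). *PSMA7* had 242, 239 and 225 CPM in parental and 199, 195 and 202 CPM in PACT KO cells, with no overlap, a log2FC of -0.24 (SE 0.03, edgeR FDR = 1.01e-08). *PSMA6* fell by 0.15 on the log2 scale (SE 0.03). *PSMA3* fell from 107 ± 0.344 to 97.2 ± 1.73 CPM, while the antisense RNA that overlaps it, *PSMA3-AS1*, rose from 44.4 to 51.9 CPM. Where the genes overlap, their reads cannot be told apart without strand. *PSMA4* moved least, at 326, 320 and 326 CPM against 310, 321 and 317 CPM, which overlapped (log2FC -0.04, SE 0.03, FDR = 0.285, edgeR).

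In the beta ring 6 of 7 genes fell (FDR under 0.01), against 18.8% of all genes tested and 37.7% of those of at least 100 CPM. The sum went from 1441 ± 27.8 to 1303 ± 21.2 CPM (SD, n = 3). The structural subunit gene *PSMB2* had 161, 162 and 160 CPM in parental and 137, 143 and 136 CPM in PACT KO cells, without overlap, and a log2FC of -0.22 (SE 0.03, edgeR FDR = 1.23e-07). *PSMB1* fell by 0.18 and *PSMB3* by 0.16 on the log2 scale (SE 0.03 each). Among the catalytic subunits, *PSMB5* (chymotrypsin-like) fell by 0.16 and *PSMB6* (caspase-like) by 0.12. The log2FC of *PSMB7* (trypsin-like) was -0.09 and missed the threshold (SE 0.03, edgeR FDR = 0.0115), although its groups did not overlap at 134, 135 and 137 CPM against 123, 126 and 131 CPM. It passed without PACT KO replicate 3, at -0.11. A noncoding gene that overlaps *PSMB7*, *LOC100129034*, rose from 269 to 293 CPM.

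In the ATPase ring of the 19S cap, which unfolds substrates, 1 of 6 genes was lower (FDR under 0.01), against 18.8% of all genes tested. At an unadjusted p under 0.05 in edgeR, 5 of the 6 were lower, against 26.7% of all genes. Whether this ring differs from the others was not tested. The gene with an FDR under 0.01 was *PSMC3*, at 176, 182 and 169 CPM in parental and 149, 151 and 149 CPM in PACT KO cells. Its groups lay apart. Its log2FC was -0.23 (SE 0.03, edgeR FDR = 5.25e-08). *PSMC6*, which sits beside it in the PSMD9 module, had the highest log2FC of all 47, at 86.3, 80.7 and 87.2 CPM against 87.5, 88.1 and 88.8 CPM. Its log2FC of 0.06 (SE 0.04) had an FDR of 0.205 in edgeR. The genes of the module that PSMD5 holds lay within the range of the other subunits. *PSMC1* had a log2FC of -0.11 (FDR = 0.0249) and *PSMC2* of -0.07 (FDR = 0.0462, edgeR), which did not pass, and *PSMD2* fell by 0.15 (FDR = 1.76e-05, edgeR). The genes that PSMD10 and PAAF1 hold, *PSMC4* and *PSMC5*, were both at -0.07 and did not pass.

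Of the 19S subunits outside the ATPase ring, 12 of 14 genes were lower (FDR under 0.01), as large a share as in the beta ring. Of all genes tested, 18.8% were lower, and of those of at least 100 CPM, 37.7%. The log2FC was below 0 in 14 of 14, against 49.9% of all genes, with a median of -0.15. The sum of the 14 went from 2281 ± 20.2 to 2020 ± 23.9 CPM (SD, n = 3). *ADRM1*, a ubiquitin receptor, had 126, 127 and 129 CPM in parental and 107, 108 and 102 CPM in PACT KO cells. *PSMD3*, a scaffold subunit, had 264, 258 and 260 CPM against 212, 223 and 218 CPM. In both genes the libraries of the groups were well apart, with log2FC values of -0.27 (SE 0.03, FDR = 3.60e-09) for *ADRM1* and -0.26 (SE 0.03, edgeR FDR = 6.61e-10) for *PSMD3*. *UCHL5*, a deubiquitinase that docks on ADRM1, fell from 27.4 ± 1.49 to 22.8 ± 0.826 CPM, a log2FC of -0.27 (SE 0.06, edgeR FDR = 6.53e-04). Without parental replicate 3 it was -0.22 and no longer passed. *PSMD4*, another ubiquitin receptor, fell by 0.13 on the log2 scale. *PSMD14*, the deubiquitinase at the entrance, was at -0.11 (FDR = 0.0123, edgeR) and *SEM1*, the smallest change of the group, at -0.10 (SE 0.04, edgeR FDR = 0.0384). *SEM1* passed without parental replicate 2, at -0.14.

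**Figure D1:**
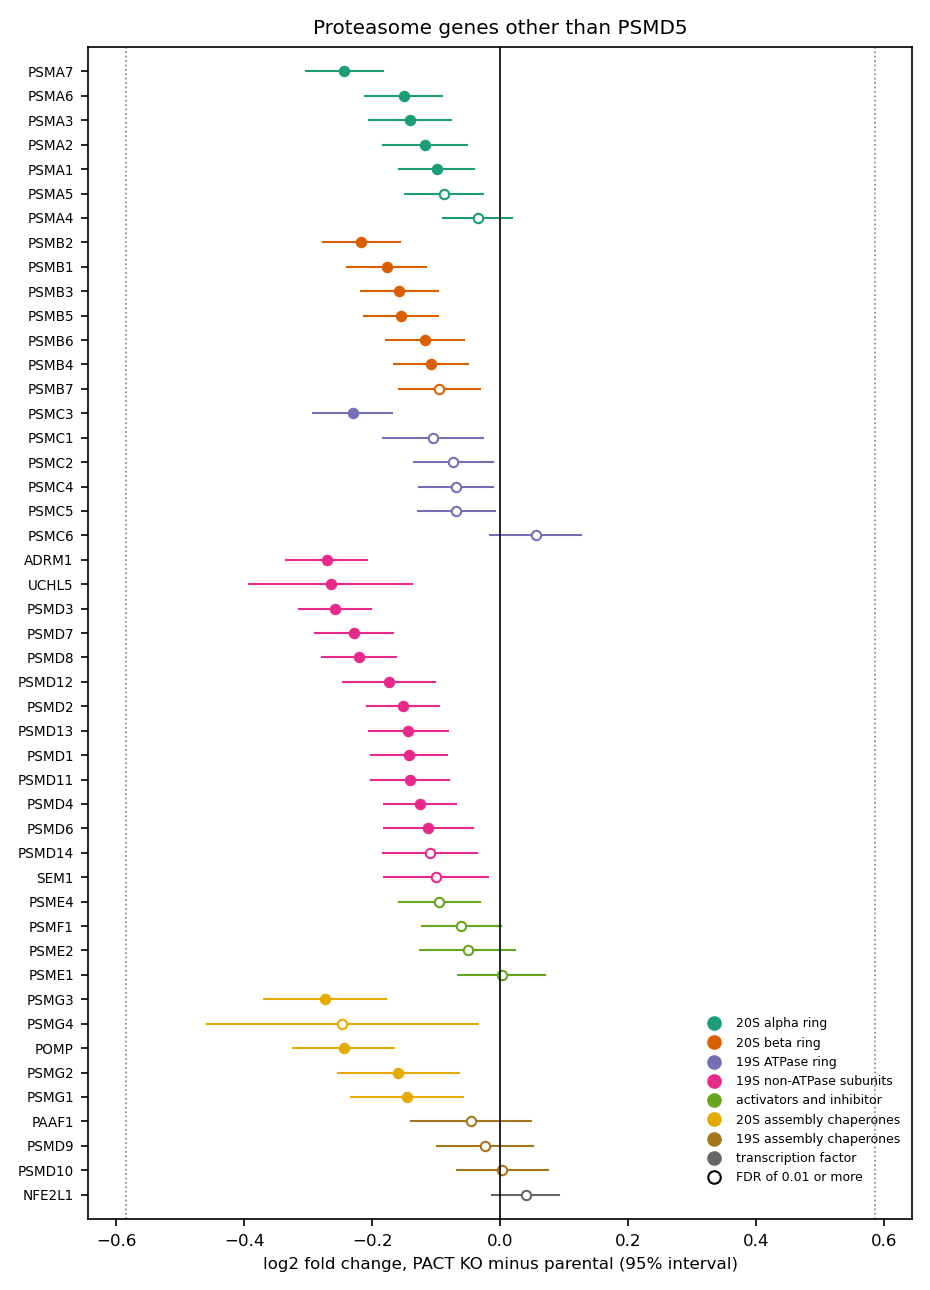
Log2 fold change (PACT KO minus parental) of each of the 47 proteasome genes other than *PSMD5*, with its 95% interval, coloured by subcomplex. Filled points have an FDR under 0.01 and dotted lines mark 1.5-fold in either direction. All filled points lie below 0, and no interval reaches a dotted line.

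Alternative activators showed no call. The genes *PSME1* and *PSME2* encode the PA28 cap, *PSME4* the nuclear activator PA200 and *PSMF1* the inhibitor PI31, and 0 of these 4 passed in either direction with edgeR, DESeq2 or limma-voom (1 was lower at an unadjusted p under 0.05). *PSME1* had 89.6, 91.3 and 89.6 CPM against 91.4, 87.6 and 92.0 CPM, with overlapping groups and a log2FC of 0.00 (95% interval -0.07 to 0.07). *PSME4* was lowest, at -0.09 (FDR = 0.0128, edgeR). The sum of the 4 was 434 ± 6.01 CPM in parental and 418 ± 5.31 CPM in PACT KO cells (SD, n = 3).

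Among the 5 chaperones that assemble the 20S core, 4 fell (FDR under 0.01), against 18.8% of all genes tested. The median log2FC was -0.24, the lowest of the subcomplexes, though the difference between subcomplexes was not tested. DESeq2 called 2 of the 5. *PSMG3*, part of a pair that helps form the alpha ring, had the largest fall of the 47, from 44.4, 40.2 and 43.0 CPM to 36.3, 34.6 and 34.7 CPM. This was a log2FC of -0.27 (SE 0.05, edgeR FDR = 8.37e-06), with no overlap of the groups. *POMP*, which guides beta ring assembly, had 57.7, 58.3 and 56.5 CPM against 48.6, 49.1 and 47.8 CPM, again without overlap, and a log2FC of -0.24 (SE 0.04, edgeR FDR = 2.35e-06). *PSMG2* and *PSMG1*, which form the other pair, were at -0.16 (FDR = 0.00498) and -0.15 (FDR = 0.00573, edgeR). These calls were fragile, since *PSMG1* did not pass with any 1 library left out, at -0.16 to -0.12. *PSMG2* lost its call when parental replicate 1 (-0.12) or 2 (-0.16) was left out, and likewise for PACT KO replicate 1 (-0.14) or 3 (-0.13). *PSMG4* had the fewest reads of the 47, and its log2FC of -0.25 had a SE of 0.10 (FDR = 0.0526, edgeR).

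The 3 other 19S chaperones gave no call with edgeR, DESeq2 or limma-voom, and 0 at an unadjusted p under 0.05. *PSMD9* had 66.2 ± 1.80 CPM in parental and 65.1 ± 0.960 CPM in PACT KO cells, *PSMD10* 82.4 ± 2.47 and 82.7 ± 1.80 CPM, and *PAAF1* 43.2 ± 1.13 and 41.8 ± 2.94 CPM (SD, n = 3 each). The groups overlapped in all 3 genes. Their log2FC values were -0.02 for *PSMD9*, 0.00 for *PSMD10* and -0.05 for *PAAF1*, with 95% intervals of -0.10 to 0.05, -0.07 to 0.07 and -0.14 to 0.05. The upper limits were gains of 3.60%, 5.29% and 3.37%.

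*NFE2L1* mRNA had 465, 464 and 458 CPM in parental and 465, 486 and 474 CPM in PACT KO cells. The groups lay apart by a narrow margin, and the log2FC of 0.04 (SE 0.03) did not pass (FDR = 0.221, edgeR). The activity of NFE2L1 is set largely by cleavage and degradation of its protein, which counts of mRNA do not measure. Of 14 genes of NFE2L1 processing and turnover, 4 fell and 2 rose (FDR under 0.01), where 18.8% of all genes tested fell and 15.3% rose, so the number that rose was near the background. *SEL1L*, a partner of the ubiquitin ligase in the membrane of the endoplasmic reticulum, had 213, 219 and 218 CPM in parental and 337, 343 and 331 CPM in PACT KO cells. It was a DEG with a log2FC of 0.64 (SE 0.03, edgeR FDR = 3.23e-21). *SYVN1*, that ligase, fell from 52.1 ± 3.12 to 43.3 ± 2.54 CPM, a log2FC of -0.27 (SE 0.05, edgeR FDR = 7.77e-06). *HCFC1*, a coregulator of transcription, fell by 0.21 on the log2 scale (SE 0.03). With parental replicate 1, parental replicate 2 or PACT KO replicate 2 left out, 1 gene of this list was higher.

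**Figure D2:**
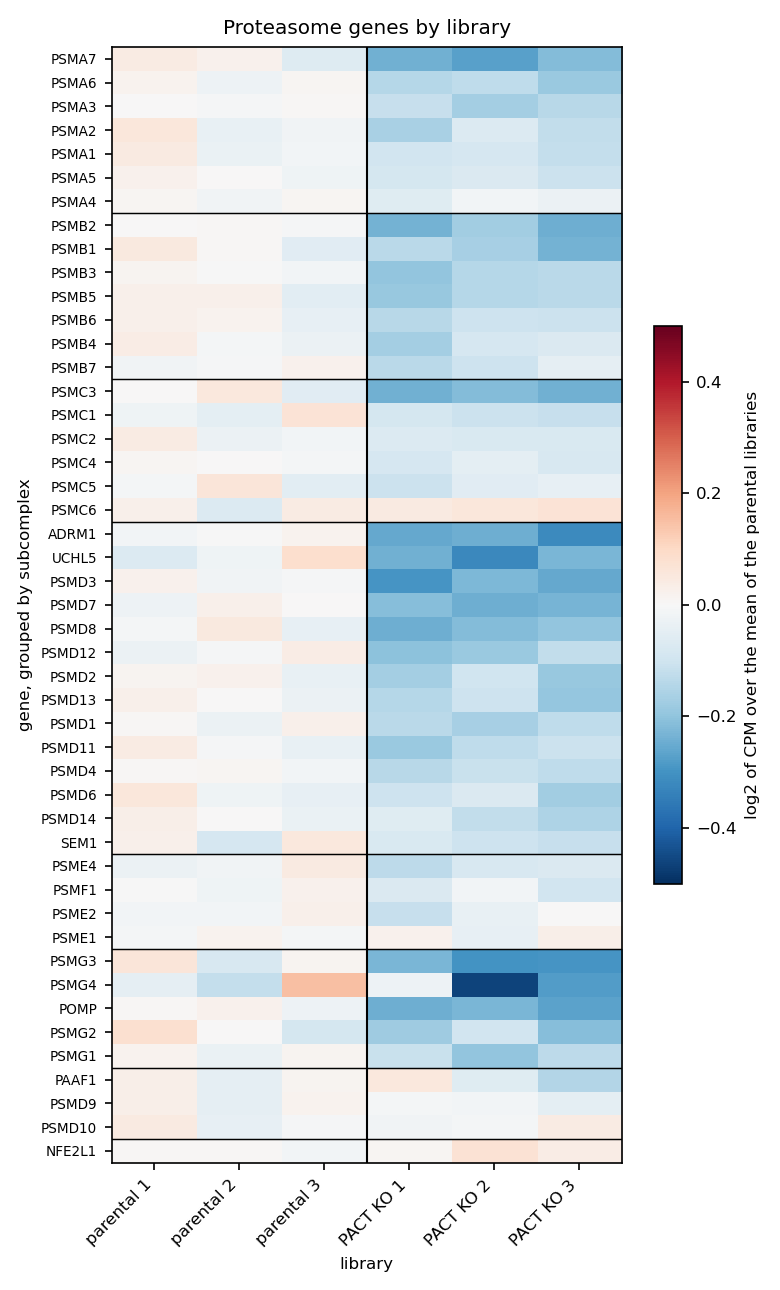
Log2 of each library's CPM over the mean of the parental libraries for the 47 proteasome genes other than *PSMD5* (rows, grouped by subcomplex) in the 6 libraries (columns). Most rows are blue in all 3 PACT KO libraries, and the 19S chaperones *PSMD9*, *PSMD10* and *PAAF1*, *PSME1*, *PSMC6* and *NFE2L1* are among the rows that are pale or red.

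Promoters were searched for the element through which NFE2L1 acts. RefSeq promoters, 250 bases before to 50 after the start, were at hand for 42 of the 49 genes. TGACNNNGC, on either strand, was in 17 of them (40.5%), against 16.1% of the 27305 genes with a promoter in the table and 19.5% of the 11195 that were also tested here. TGACTCAGC, a special case of it, was in none of the 42 and in 0.689% of all. TCTCGCGAG was in the *PSMD5* promoter alone among the 42, and in 1.60% of tested genes. The median log2FC was -0.12 in the 16 tested genes with TGACNNNGC (*PSMD5* left out) and -0.12 in the 25 without.

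Of the 47 genes other than *PSMD5*, 9 overlap another gene with at least 1 CPM, namely *PSMA3*, *PSMB7*, *PSMC1*, *PSMC2*, *PSMC5*, *UCHL5*, *PSMG2*, *PSMD10* and *PAAF1*. Without them, 25 of 38 were lower and the median was -0.14.

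Genes that work beside the proteasome were read from further lists, compiled from general knowledge. Of the immune and tissue-specific 20S subunits, only *PSMB10* had enough reads to be tested, and it fell from 16.5 ± 0.509 to 12.6 ± 0.102 CPM (SD, n = 3), a log2FC of -0.39 (SE 0.08, edgeR FDR = 1.19e-04). *PSMB8* had 2, 3 and 2 reads against 6, 7 and 3, and *PSMB9* had 8, 6 and 3 against 5, 10 and 5, too few to be tested. The testis subunit *PSMA8* had 0 reads in every library.

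Among 16 ubiquitin receptors, shuttle factors and proteasome-associated proteins, 6 were lower and 1 higher (FDR under 0.01), against 18.8% and 15.3% of all genes tested. With libraries scaled by their totals alone, 3 were lower and 2 higher. The shuttle factor *UBQLN4*, which carries ubiquitinated proteins to the 19S cap, had 2721, 2674 and 2998 reads in parental and 2479, 2387 and 2024 reads in PACT KO libraries. After scaling this was 122 ± 1.96 CPM against 99.5 ± 1.20 CPM (SD, n = 3), with no overlap, at a log2FC of -0.29 (SE 0.03, edgeR FDR = 8.77e-10). *UBE3C*, a ubiquitin ligase bound to the proteasome, was at -0.19 (SE 0.03, edgeR FDR = 6.81e-07). *MIDN*, which encodes midnolin, a protein that brings substrates to the proteasome without ubiquitin, went the other way, from 189, 186 and 181 CPM to 223, 213 and 218 CPM. Its groups lay apart, at a log2FC of 0.23 (SE 0.03, edgeR FDR = 1.30e-08).

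NFE2L2 is a related factor that drives the antioxidant response through the same element. In a list of 10 genes with its targets, 7 fell and 0 rose (FDR under 0.01), against 18.8% and 15.3% of all genes tested. The median was -0.28, 0 rose at an unadjusted p under 0.05, and DESeq2 and limma-voom gave the same counts. *HMOX1* had the 1 log2FC above 0 and did not pass. *NQO1*, a quinone reductase, was a DEG, with 199, 194 and 201 CPM in parental and 133, 128 and 117 CPM in PACT KO cells and a log2FC of -0.65 (SE 0.03, edgeR FDR = 1.36e-18). *SQSTM1*, an autophagy receptor, was at -0.37 (SE 0.03, FDR = 3.80e-15) and *TXNRD1*, a thioredoxin reductase, at -0.35 (SE 0.03, edgeR FDR = 2.75e-14). The libraries of the groups did not overlap in these 3 genes. *NFE2L2* itself did not pass.

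**Figure D3:**
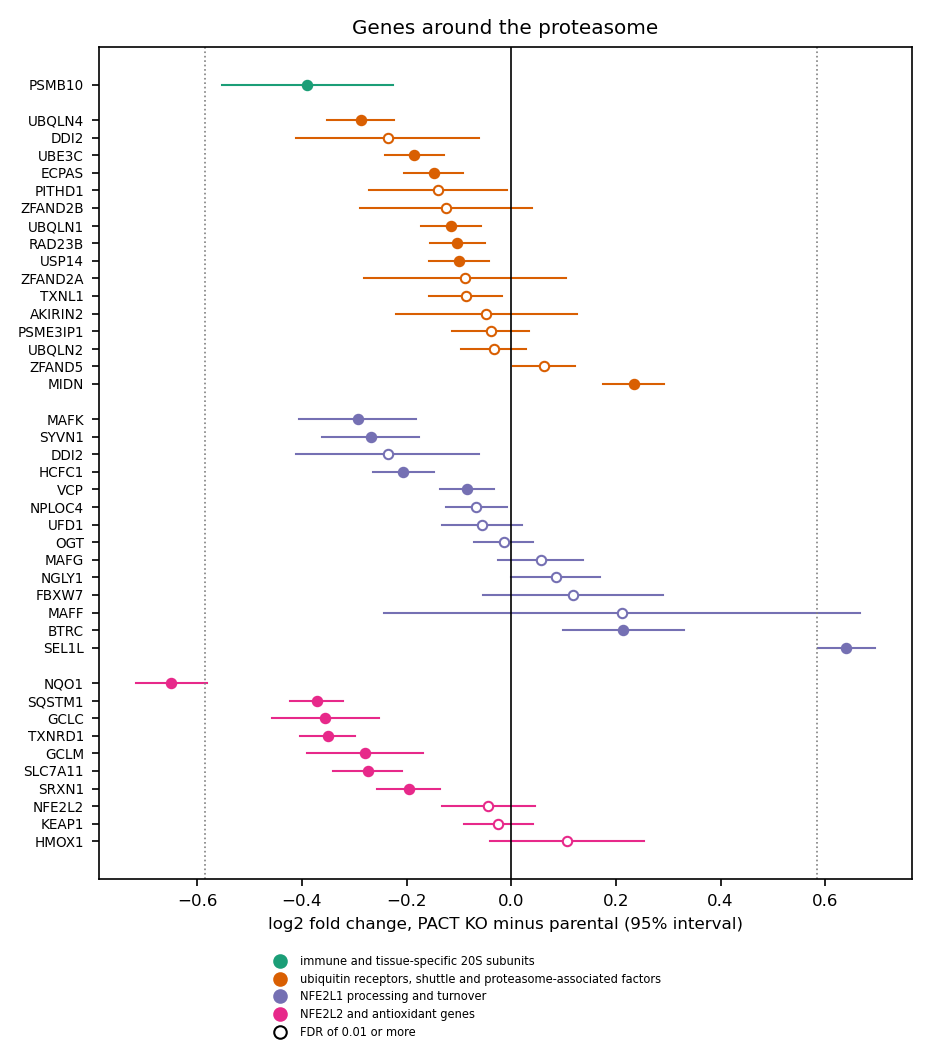
Log2 fold change (PACT KO minus parental) and 95% interval of the tested genes in 4 lists around the proteasome, with filled points for an FDR under 0.01 and dotted lines at 1.5-fold. The filled points of the antioxidant list all lie below 0, and *SEL1L* at 0.64 and *NQO1* at -0.65 are the DEGs.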

How the data were processed

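PolyA RNA of 3 LNCaP parental and 3 PACT KO dishes was sequenced on a NovaSeq. The authors deposited read counts per NCBI Gene number, not normalized. The submitters' processing notes name bcl2fastq 2.20.0.422, STAR 2.5.3a, StringTie 1.3.3, featureCounts 1.5.3 and hg38, and the annotation and strand setting are not given in the sources used here. Reads on the 1 row with a blank gene number, 0.0688% to 0.0708% of a library, were left out. Symbols from RefSeq (GRCh38.p14) matched 92.5% of the 29806 numbers.

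Genes were kept by edgeR's filterByExpr, scaled by TMM and tested by quasi-likelihood (2-sided), with p-values adjusted over 14462 genes by the Benjamini-Hochberg method (edgeR 4.0.16, limma 3.58.1, DESeq2 1.42.0, R 4.3.3), after a test on simulated data. The paper's DEG thresholds were used (FDR 0.01, 1.5-fold). CPM use the TMM factors. Levels per kilobase use the principal transcripts of GENCODE 29. Replicates differed by more than sampling noise, with variance ratios of 1.55 to 3.58, and an exact permutation test of 3 against 3 cannot go below 0.10. Bounds against 3 reads cover counting error only. Figures were drawn with matplotlib 3.10.9.

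The genes, lists and tests were chosen with earlier results of these data known. Named are *PSMD5*, *NFE2L1*, *PRKRA*, DEGs, up to 3 of the largest changes per direction and the smallest change in each subcomplex, genes not tested, the 3 genes of smallest p in each further list, and the 3 neighbours of *PSMD5* on each side. Catalytic subunits, partners of the 19S chaperones, ubiquitin receptors, *PSMG4*, *PSME4*, *HMOX1* and *NFE2L2*, the overlapping genes *PSMA3-AS1* and *LOC100129034*, *RNR2*, the untested 20S subunits and markers at 0 reads were named after their values were seen. Of the further marker genes, *STEAP2*, *FOLH1*, *KRT18* and *CD68* fall under the rule but enter no result on the proteasome. Alternatives were other scalings, filters and tests, the replicate number as a block and each library left out. The background of 100 CPM, the lengths, TCTCGCGAG and the removal of overlapping genes were chosen after seeing the data. A few genes of the further lists, and with them the list of ubiquitin genes, are not reported here.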

Additional observations from a re-analysis of the deposited data

How the results depend on the processing

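The calls on proteasome genes did not depend on the scaling in direction, but their number did. Across the alternatives at an FDR of 0.01, 21 to 29 of the 47 genes other than *PSMD5* were lower and 0 were higher (22 to 27 lower with each library left out), and at an FDR under 0.05 36 were lower. Scaling by the upper quartile or by library totals moved the median of all genes to 0.02 and 0.03, and the medians of the proteasome genes moved with it. Under these scalings the median of the 47 was -0.10 and -0.10, that of the alpha ring -0.093 and -0.088, of the beta ring -0.13 and -0.13, of the ATPases -0.047 and -0.042, and of the other 19S subunits -0.12 and -0.12. The activators were at -0.027 under library totals, and the 19S chaperones changed sign, to 0.00015 and 0.0053. Without the 9 genes that overlap another of at least 1 CPM, the median of the other 38 was -0.14. With each library left out in turn the median of the 47 lay between -0.14 and -0.12, of the alpha ring between -0.14 and -0.090, of the other 19S subunits between -0.17 and -0.14, and of the 20S chaperones between -0.24 and -0.19. *PSME1* and *PSMD10*, which had no call, changed sign when libraries were left out, with log2 fold changes of -0.0050 to 0.0245 and of -0.0165 to 0.0255.

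Under library totals, 3 of the shuttle and associated factors were lower and 2 higher. With a library left out, 1 to 2 of the NFE2L1 processing genes were higher. Testing against 1.5-fold with glmTreat in edgeR left 151 DEGs lower and 114 higher of 383 and 444.

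Libraries with the same replicate number did not deviate together (correlations of -0.0938, 0.00285 and -0.0862), so the numbers do not pair them. With the replicate number as a block, 27 of the 47 genes were lower, and *PSMG1*, at -0.15, no longer passed. For *PSMD5* and *CUTALP* the depth sets the bound, as both were at 0 to 2 reads in PACT KO cells. The causes of these shifts were not tested.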
